A study of Canis lupus familiaris with 20 samples.

Results

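Chemokines are small secreted or membrane-held proteins that draw white blood cells along a gradient, and their receptors are the proteins on the cell surface that read it. The genes described here are all those whose name on a dog expression array starts with CCL, CXCL, CX3CL, XCL, CCR or CXCR and a digit, together with IL8. The rule took 60 of the 43603 distinct probes of the array, which give 35483 names in all, and yielded 42 genes, 27 for ligands and 15 for receptors. Of these, 12 genes had several probes, and the probe with the highest mean log2 signal over the 20 arrays stood for the gene. The rule used names alone and no measured change. CXCR7 is now called ACKR3 and IL8 is now called CXCL8.

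The arrays measured RNA of whole retina from 10 dogs of a research colony, a week after both eyes were injected, with 1 array per eye. Right eyes received 12 µg of CNTF, ciliary neurotrophic factor, which acts on gp130-containing receptors and the transcription factor STAT3, and left eyes received buffer (PBS), so every control eye also had an injection and a treated fellow eye. The 5 normal dogs were all male and comprised 4 carriers (CNGB3+/m) and 1 homozygous wild type (CNGB3+/+, dog 3). The 5 mutant dogs, 3 female and 2 male, were CNGB3m/m for the D262N missense mutation in the cone cyclic nucleotide-gated channel, which causes day blindness. The sample labels give 8.9 weeks of age for normal dogs and 10.7 to 11.5 weeks for mutants, the study design gives about 11 months for all, and age was therefore not used. Treatment and genotype thus make 4 groups of 5 arrays.

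Ligands with paired neighbouring cysteines (CCL) mostly act on CCR receptors and those with a residue between the cysteines (CXCL) on CXCR receptors, and many ligands share a receptor. Inflammatory members such as CCL2, CCL5 and CXCL10 are made on demand by glia, vessel cells and macrophages, while others such as CXCL12 are made without a stimulus. In the retina, Müller glia, microglia and the pigment epithelium are known sources, and CX3CL1 from neurons acts on the receptor CX3CR1 of microglia.

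Levels are log2 of the background-subtracted signal minus the 75th percentile of the array, so 0 is that percentile, and levels of different genes were not compared because each rests on its own probe. The 20 arrays lay on 5 slides, and most slides held a single treatment. Slide 3 alone mixed them, holding the CNTF eyes of normal dogs 1 and 2 and the PBS eyes of mutants 4 and 5. Between 52.2 and 71.9% of all probes were well above background per array, and the lowest share was in the CNTF eye of mutant dog 1.

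Many of these genes lay near the detection limit of the array. Of the 42 genes, 7 (CCL14, CCL27, CCR10, CXCL12, CXCL14, CXCL16 and CXCR7) were well above background on all 20 arrays. Another 8 (CCL1, CCL13, CCR2, CCR3, CCR6, CCR7, CCR9 and XCL2) were above it on none. In PBS eyes of normal dogs 14 genes were above background on all 5 arrays and 18 on none. CNTF eyes of normal dogs had 16 and 16, PBS eyes of mutants 10 and 21, and CNTF eyes of mutants 12 and 16. CCL19 was seen on no PBS array and on all 10 CNTF arrays.

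**Figure D1:**
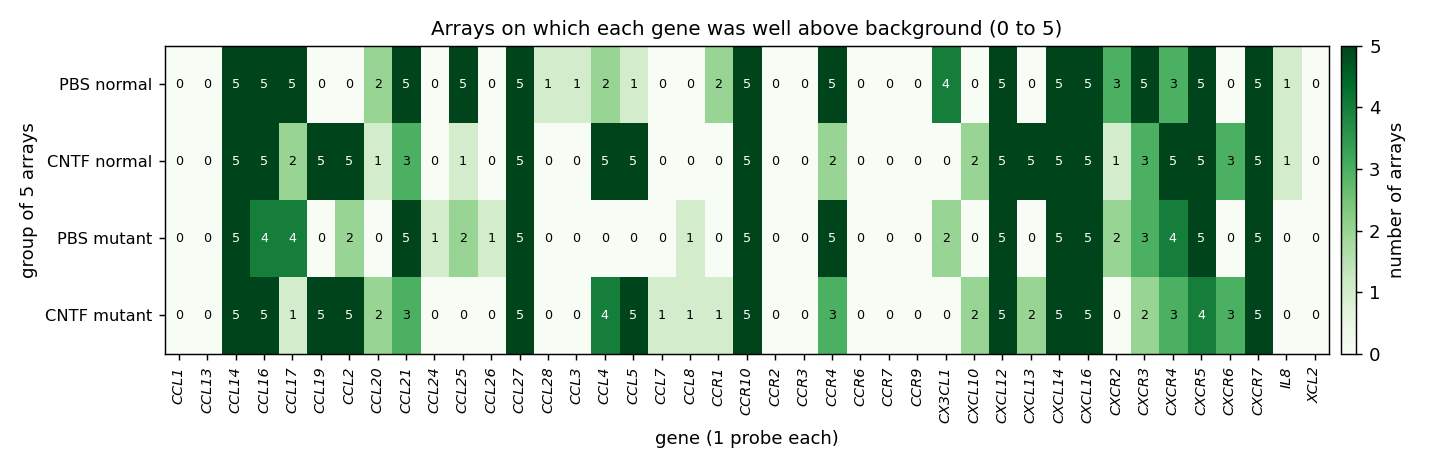
Number of arrays, of 5 per group, on which the probe of each of 41 of the 42 genes was marked well above background by the scanner software, with groups in rows and genes in columns. CCL19 goes from 0 in PBS groups to 5 in CNTF groups, and CCL17, CCL25 and CX3CL1 are seen on more PBS than CNTF arrays.

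A gene was tested if some group had its probe above background on 4 or 5 of the 5 arrays, and 22 of the 42 genes met this. In normal dogs CNTF eyes had higher signal for 9 of these 22 genes (40.9%), where 23.6% of all 29336 tested probes were higher, and lower signal for 7 (31.8%), where 27.6% of all probes were lower. Across mutant dogs 8 were higher (36.4%, against 11.6% of all probes) and 4 lower (18.2%, against 17.3% of all probes). With normexp background correction the falls shrank to CCL27 in normal dogs and CCL27 and CXCR7 in mutants, with 7.63 and 4.95% of all probes lower. The other 6 falls of normal dogs then lay between -0.22 and 0.20, and CXCR4 no longer passed (0.61, adjusted p = 0.144). All 8 genes that rose in mutants also rose in normal dogs, and CCL17, CCL25 and CCL27 fell in both. The CNTF arrays lay all above the PBS arrays for 8 tested genes in normal dogs and 6 in mutants (14.2 and 6.88% of all probes), and all below them for 5 and 2 (15.8 and 7.87% of all probes). The calls are from limma with the dog as a block, at a Benjamini-Hochberg adjusted p under 0.05 over all probes.

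The filter itself shapes those counts. CCL2, CCL4, CCL5, CCL19 and CXCL13 were tested only because they were above background in a CNTF group, and CCL17, CCL21, CCL25, CCR4, CX3CL1 and CXCR3 only because of a PBS group, so those genes, if they differed, had to differ in that direction. A further 10 genes met it in a group of either treatment. The median change of the 22 tested genes was -0.09 in normal dogs and 0.01 in mutants, beside -0.09 and -0.09 for all tested probes. Dim values also moved by themselves: the 8 genes seen on no array were higher in CNTF eyes of normal dogs by 0.13 to 0.78 (median 0.64) and in mutants by -0.02 to 0.77 (median 0.13). For a gene seen on no PBS array, the change is therefore also given as a lower limit in fold, from the mean of the CNTF arrays against the dimmest signal that passes as well above background on each PBS array, or the gene's own signal if higher. That mean takes in every CNTF array of the group, also those not above background, and its spread is not counted.

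**Figure D2:**
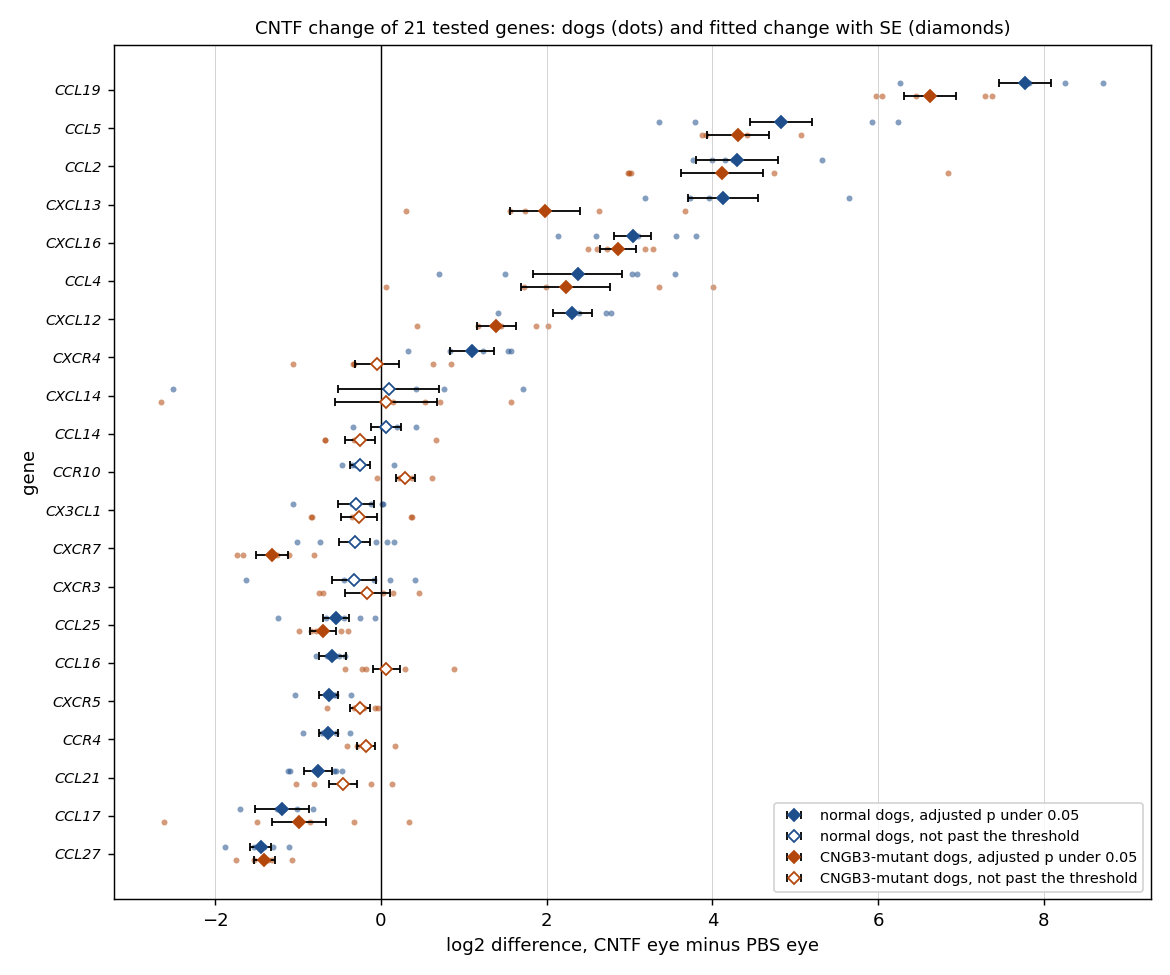
Log2 difference between the CNTF and the PBS eye of each dog (dots) and the fitted change with its standard error (diamonds) for 21 of the 22 tested genes, normal dogs in blue and CNGB3-mutant dogs in orange, with filled diamonds for an adjusted p under 0.05. CCL19 lies farthest to the right in both genotypes, and CCL27 lies farthest to the left among called genes.

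Lymphoid homing ligands held the largest rise. CCL19 guides dendritic cells and T cells into lymph nodes through its receptor CCR7, and its probe spans 150 bases of the genome at chr11:54387092-54387241 (build canFam2), which is more than its own 60 bases. It is shown with those of CCL4, an inflammatory ligand that also rose in both genotypes, and CXCL16, a ligand above background on every array. Sequences are as deposited, 5′ to 3′, all in lower case since no part is singled out.
CCL19 probe: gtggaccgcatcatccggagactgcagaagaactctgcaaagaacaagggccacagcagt
CCL4 probe: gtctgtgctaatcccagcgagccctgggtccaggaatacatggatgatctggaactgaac
CXCL16 probe: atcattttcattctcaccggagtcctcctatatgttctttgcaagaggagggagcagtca
The other 2 probes lie at chr9:41001749-41001808 for CCL4 and chr5:34816525-34816584 for CXCL16, and which exon or untranslated part they cover was not assigned, as no annotation of that build was used. Probes of different genes of the family shared no run of bases longer than 17.

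CCL19 levels in normal dogs 1 to 5 were -5.83, -6.85, -7.24, -5.02 and -6.74 in PBS eyes and 1.99, 1.41, 1.48, 1.24 and 1.04 in CNTF eyes. No PBS array was above background, every CNTF array was, and the groups lay far apart. The rise was 7.77 ± 0.32 on the log2 scale (adjusted p = 8.05e-08), which is at least 73.8-fold. Mutant dogs had -5.30, -6.13, -5.87, -6.49 and -6.82 in PBS eyes and 0.68, 1.25, 0.18, -0.04 and 0.47 in CNTF eyes, again with no overlap. Their rise was 6.63 ± 0.32 (adjusted p = 2.45e-07), at least 28.7-fold. The receptor CCR7 was above background on 0 of 20 arrays.

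CXCL13, which attracts B cells through CXCR5, showed its clearest rise in normal dogs. PBS eyes of normal dogs 1 to 5 had -6.77, -6.91, -7.31, -6.91 and -6.87 and CNTF eyes -1.12, -3.18, -3.34, -2.79 and -3.68. Dog 1 was the highest of the CNTF eyes, and all 5 lay above the PBS eyes. The change was 4.13 ± 0.43 (adjusted p = 3.05e-05), at least 3.86-fold. PBS eyes of mutants had -6.61, -6.25, -6.00, -6.61 and -6.91 and their CNTF eyes -5.05, -4.51, -2.33, -6.30 and -4.27, where only dogs 3 and 5 were above background and dog 4 lay among the PBS values. The change in mutants passed the test at 1.98 ± 0.43 (adjusted p = 0.00521), but no fold is given, since the mean of the CNTF eyes was below the limit that PBS arrays could have shown.

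The other 2 homing ligands went down in normal dogs. CCL21, the second ligand of CCR7, had -3.07, -3.33, -3.13, -3.09 and -3.04 in PBS eyes of normal dogs and -4.19, -3.80, -4.23, -3.63 and -3.61 in CNTF eyes, with 5 and 3 arrays above background and no overlap, and fell by 0.76 ± 0.17 (adjusted p = 0.00444). The values of mutants overlapped and the change was -0.45 ± 0.17 (adjusted p = 0.0707). CCL25, a thymus and gut chemokine read by CCR9, fell by 0.53 ± 0.16 in normal dogs (adjusted p = 0.0159) and by 0.70 ± 0.16 in mutants (adjusted p = 0.00671), with PBS and CNTF ranges that overlapped in both. CCL25 was above background on 5 and 2 PBS arrays and on 1 and 0 CNTF arrays of normal and mutant dogs, so the size of its fall is uncertain. Without normal dog 4 its change in normal dogs was -0.36 and no longer passed.

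Among the 10 CC ligands known to draw monocytes and T cells, CCL2, CCL4 and CCL5 rose in both genotypes, and CCL16 fell in normal dogs. CCL2 draws monocytes through CCR2. Its levels in normal dogs were -4.72, -5.40, -6.35, -4.90 and -5.09 in PBS eyes and -0.56, -1.15, -1.02, -1.13 and -1.09 in CNTF eyes, and in mutants -4.33, -5.43, -4.08, -6.28 and -4.25 and -1.34, -0.69, -1.06, 0.56 and -1.27. CNTF values lay above all PBS values in each genotype, and mutant dog 4 had both the lowest PBS and the highest CNTF value of the mutants. The rise was 4.30 ± 0.49 in normal dogs (adjusted p = 6.64e-05), at least 13.7-fold, and 4.12 ± 0.49 in mutants (adjusted p = 0.000108), where 2 of 5 PBS arrays were above background.

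CCL5 and CCL4 draw T cells and monocytes to sites of inflammation. CCL5 had -5.33, -6.81, -6.55, -4.35 and -6.32 in PBS eyes of normal dogs, where only dog 4 was above background, and -0.49, -0.89, -0.31, -0.99 and -2.52 in CNTF eyes. Mutants had -6.57, -6.19, -5.93, -6.16 and -6.88 in PBS eyes, none above background, and -2.65, -1.90, -0.86, -2.28 and -2.47 in CNTF eyes. Groups did not overlap in either genotype. CCL5 rose by 4.83 ± 0.37 in normal dogs (adjusted p = 3.5e-06) and by 4.31 ± 0.37 in mutants (adjusted p = 9.82e-06, at least 4.94-fold).

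CCL4 was more scattered. PBS eyes of normal dogs had -5.06, -4.69, -4.84, -4.14 and -4.62 (dogs 3 and 4 above background) and CNTF eyes -1.51, -1.65, -1.75, -2.64 and -3.91. The lowest CNTF value, that of dog 5, lay just above the highest PBS value, that of dog 4. In mutants PBS eyes had -4.79, -6.00, -5.85, -5.15 and -5.09 and CNTF eyes -4.73, -2.64, -1.84, -3.16 and -3.35, and in dog 1 the eyes differed by only 0.06. The rises were 2.38 ± 0.53 (adjusted p = 0.00432) and 2.23 ± 0.53 (adjusted p = 0.00941). The latter was at least 2.29-fold, from a mean that includes the CNTF eye of dog 1, which was not above background, so this limit is not firm. The named probe of CCL3, the closest relative of CCL4, was above background on 1 of 20 arrays.

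The remaining ligands of this kind were mostly dim. CCL16 fell by 0.58 ± 0.16 in normal dogs (adjusted p = 0.0134), from PBS levels of -2.05 to -1.71 to CNTF levels of -2.83 to -2.21, with no overlap. Its change in mutants was 0.07 ± 0.16 (adjusted p = 0.794). The CCL16 probe comes from a cDNA clone placed at chr9:57264673-57264732, far from a second CCL16 probe at chr9:41111386-41111675 that was above background on no array, so which transcript it reads is uncertain. CCL14 was above background on all arrays with changes of 0.07 ± 0.18 and -0.25 ± 0.18 (adjusted p = 0.767 and 0.334). CCL8 was seen on 1 PBS and 1 CNTF array of mutants, CCL7 on 1 CNTF array of a mutant, and CCL1 and CCL13 on none. CCL8 values in normal dogs were -6.68, -6.63, -6.75, -6.73 and -5.26 in PBS eyes and -4.23, -5.56, -4.40, -4.53 and -4.12 in CNTF eyes, none above background. They overlapped at the CNTF eye of dog 2 and the PBS eye of dog 5. Without the filter on dim probes CCL8 was called higher in normal dogs (1.84 ± 0.33, adjusted p = 0.00264) and not in mutants (0.74, adjusted p = 0.182).

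Of the 3 constitutive or membrane-bound ligands, CXCL12 and CXCL16 rose in both genotypes. CXCL12 retains blood stem cells and guides lymphocytes and vessel cells through CXCR4. Its PBS levels in normal dogs were -1.43, -2.42, -2.38, -2.39 and -2.57 and its CNTF levels -0.01, 0.36, 0.01, -0.12 and 0.14. The PBS eye of dog 1 stood above the other PBS eyes but below every CNTF eye. Mutants had -2.04, -1.70, -1.74, -2.20 and -2.09 and -0.02, 0.18, -0.30, -1.76 and -0.92, where the CNTF eye of dog 4 lay among the PBS values. The rise was 4.97-fold in normal dogs (2.31 ± 0.24, adjusted p = 2.8e-05) and 2.62-fold in mutants (1.39 ± 0.24, adjusted p = 0.00122). A second CXCL12 probe gave 1.29 ± 0.24 in normal dogs (adjusted p = 0.00141) and 0.48 ± 0.24 in mutants (adjusted p = 0.153), so the probes differ in size and, in mutants, in the call.

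CXCL16 is made as a membrane protein that binds oxidised lipids and, once shed, attracts T cells through CXCR6. It was above background on every array, with -3.14, -3.07, -4.05, -3.19 and -4.32 in PBS eyes and -0.04, -0.93, -0.49, -0.59 and -0.52 in CNTF eyes of normal dogs. Mutants had -3.44, -2.44, -2.91, -3.45 and -3.30 and -0.25, 0.29, -0.30, -0.17 and -0.80. The lowest CNTF value lay above the highest PBS value by more than 1 log2 unit in both genotypes. The rise was 8.21-fold (3.04 ± 0.22, adjusted p = 2.15e-06) and 7.27-fold (2.86 ± 0.22, adjusted p = 4.33e-06). In the RefSeq gene table of the assembly UU_Cfam_GSD_1.0 CXCL16 overlaps MED11, a subunit of the Mediator complex, whose own probe rose by 1.30 ± 0.12 and 0.85 ± 0.12 (adjusted p = 1.05e-05 and 0.000275). CX3CL1, the neuronal ligand of microglia, was above background on 4 and 2 PBS arrays and no CNTF array, with changes of -0.30 ± 0.22 and -0.26 ± 0.22 (adjusted p = 0.264 and 0.408).

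**Figure D3:**
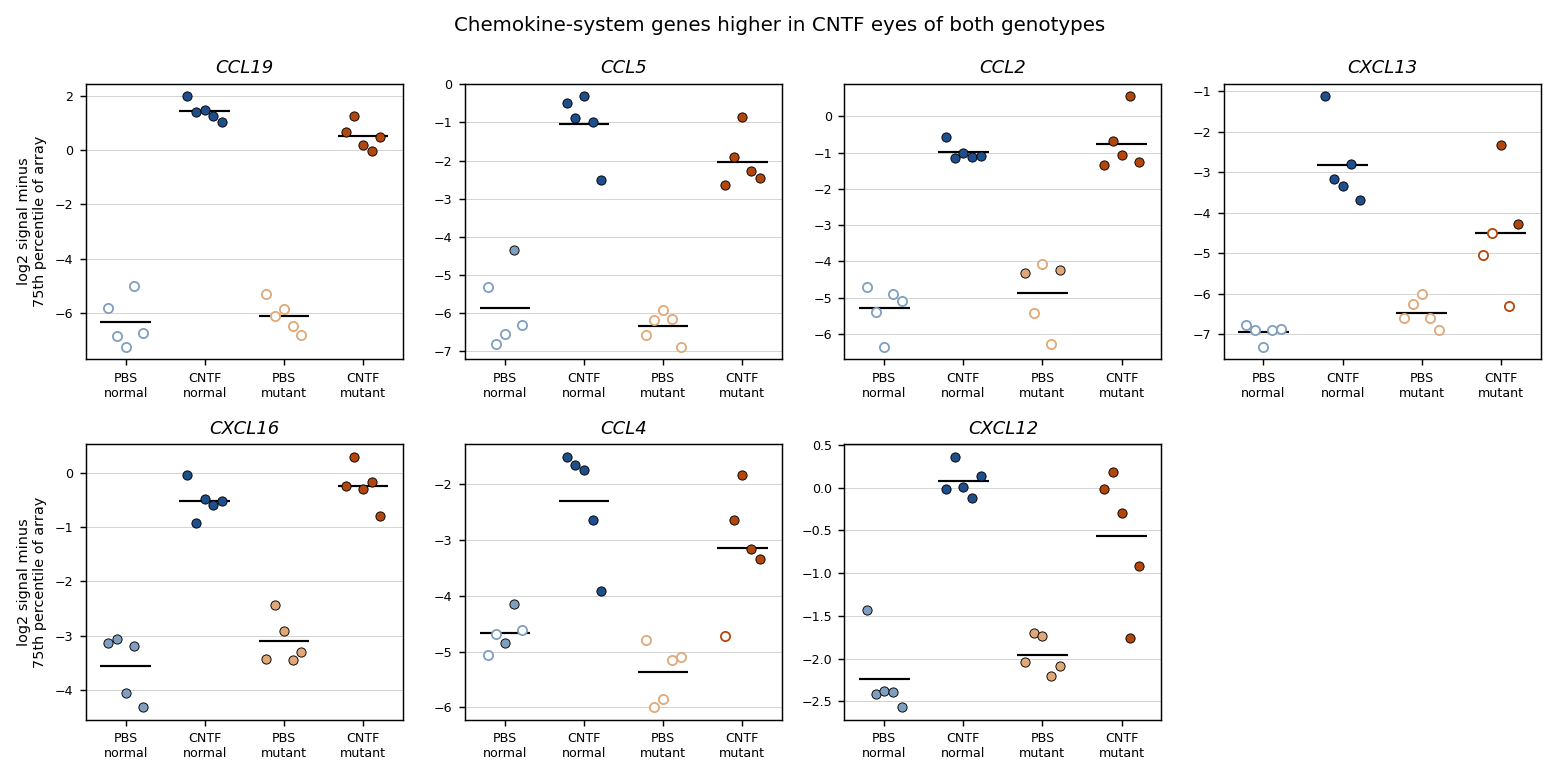
Log2 signal minus the 75th percentile of the array, on the y axis, for 7 of the 8 genes higher in CNTF eyes of both genotypes, with 1 point per array, filled where the probe was well above background and open where it was not, and a line at the group mean of 5. The y axes differ between genes. All points of a CNTF group lie above those of the PBS group of the same genotype except for CXCL12 and CXCL13 in mutants, where that of dog 4 falls among the PBS eyes.

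CXCL10, an interferon-induced ligand of CXCR3, was not tested because it was above background on too few arrays. Its levels in normal dogs were -6.91, -6.97, -6.79, -6.95 and -6.91 in PBS eyes and -2.64, -4.80, -4.78, -3.97 and -4.42 in CNTF eyes, of which dogs 1 and 4 were above background. In mutants they were -6.65, -6.37, -6.16, -6.74 and -7.00 and -5.34, -3.92, -4.94, -3.96 and -4.93, with dogs 4 and 5 above background. No PBS array was above background, and CNTF values did not overlap PBS values in either genotype. The difference of means was 2.78 in normal dogs and 1.97 in mutants. The lower limit was 1.57-fold in normal dogs, from a mean that includes CNTF arrays not above background, so it is not firm. Mutants had no lower limit above 1. When the filter on dim probes was dropped, limma gave adjusted p = 0.000206 and 0.00231.

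The array holds a second CXCL10 probe, and both are shown. It reads nearly the same stretch, so it is not a separate check of this dim gene. Capitals mark the 54 bases they share, and the probes lie at chr32:3563193-3563252 and chr32:3562730-3563246, the second across a gap in the genome.
CXCL10 probe used: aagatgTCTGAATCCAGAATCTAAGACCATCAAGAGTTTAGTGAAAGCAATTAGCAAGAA
CXCL10 second probe: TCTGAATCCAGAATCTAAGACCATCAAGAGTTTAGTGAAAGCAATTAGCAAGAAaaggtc
The second probe was above background on 0 PBS arrays, on 3 CNTF arrays of normal dogs and on 1 of mutants, with differences of 2.85 and 1.38. The last CXCL10 probe, at chr32:3562583-3562642, was above background on no array, with differences of -0.26 in normal dogs and 0.08 in mutants. The differences of CXCL10 thus rest on 1 stretch of sequence. IL8, which draws neutrophils, was above background on 1 PBS and 1 CNTF array of normal dogs and on none of mutants, and XCL2, a C chemokine, on none.

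The 7 ligands of skin, mucosa and type 2 responses held falls and no rise. CCL27, a skin chemokine read by CCR10, had PBS levels of 1.21, 1.09, 1.53, 1.33 and 1.19 in normal dogs and CNTF levels of -0.32, -0.02, -0.35, -0.07 and -0.12. Mutants had 1.17, 0.66, 1.01, 0.76 and 1.08 and -0.37, -0.65, -0.35, -0.99 and 0.01. All 10 CNTF eyes lay below all 10 PBS eyes. CCL27 fell by 1.45 ± 0.13 in normal dogs (adjusted p = 8.85e-06) and by 1.40 ± 0.13 in mutants (adjusted p = 1.31e-05). In the RefSeq table CCL27 overlaps IL11RA, the receptor subunit for interleukin 11, which has no probe by that name here, and which of the genes the probe reads was not tested.

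CCL17, a T cell attractant read by CCR4, had -3.33, -3.77, -3.07, -3.28 and -3.67 in PBS eyes and -4.59, -4.58, -4.23, -4.29 and -5.37 in CNTF eyes of normal dogs, with no overlap and with 5 and 2 arrays above background. Its fall was 1.19 ± 0.33 (adjusted p = 0.0118). In mutants the values were -4.31, -2.14, -4.01, -3.77 and -4.48 and -3.97, -4.75, -4.33, -5.26 and -5.33, the groups overlapped, and in dog 1 the CNTF eye was the higher. The fall of 0.99 ± 0.33 in mutants had an adjusted p of 0.0426 and did not pass when mutant dog 2, 4 or 5 or normal dog 1, 2, 3 or 4 was left out of the fit. Without mutant dog 2, whose PBS eye was the highest, it was -0.58 (adjusted p = 0.128).

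CXCL14, a ligand of many epithelia with no settled receptor, was the most uneven of the measured genes. PBS eyes of normal dogs had -0.33, -0.51, 2.78, -0.44 and -0.80 and CNTF eyes 0.43, -0.42, 0.28, -0.01 and 0.92, and mutants had -0.69, 2.88, -0.56, 3.20 and -0.60 and -0.54, 0.23, -0.03, 4.77 and 0.11. A single PBS eye of normal dogs, 2 PBS eyes of mutants and 1 CNTF eye of mutants stood at 2.78 or above while all others lay at 0.92 or below. Mutant dog 4 was high in both eyes, and dogs 2 (mutant) and 3 (normal) in the PBS eye alone. The changes were 0.10 ± 0.61 and 0.06 ± 0.61 (adjusted p = 0.904 and 0.953). Of the rest, CCL20 was above background on 2 PBS and 3 CNTF arrays, CCL28 on 1 PBS array, and the eotaxins CCL24 and CCL26 on 1 PBS array each.

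Of the receptors, both those of CXCL12 were called in 1 genotype each. CXCR4, the signalling receptor, had -3.71, -4.18, -4.72, -4.89 and -5.47 in PBS eyes and -3.38, -3.35, -3.14, -3.66 and -3.93 in CNTF eyes of normal dogs, which overlapped, and rose by 1.10 ± 0.26 (adjusted p = 0.00612). In mutants it had -3.97, -3.35, -4.73, -4.38 and -4.05 and -5.03, -3.67, -3.88, -3.76 and -4.38, a change of -0.05 ± 0.26 (adjusted p = 0.915). The difference between genotypes was -1.15 ± 0.37 (adjusted p = 0.103) and did not pass. CXCR7, a scavenging receptor that clears CXCL12, had 0.24, 0.66, 0.75, 0.58 and 0.30 in PBS eyes and -0.57, -0.60, -0.98, -1.08 and -0.81 in CNTF eyes of mutants, with no overlap, and fell by 1.31 ± 0.19 (adjusted p = 0.000420). Normal dogs had 0.51, 0.08, -0.30, -0.67 and -0.20 and -0.22, -0.94, -0.36, -0.59 and -0.04, a change of -0.31 ± 0.19 (adjusted p = 0.184), and the difference between genotypes did not pass (adjusted p = 0.103).

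CCR4, the receptor of CCL17 on T cells, fell by 0.63 ± 0.11 in normal dogs (adjusted p = 0.00105), with a CNTF eye at -3.47 inside the PBS range of -3.67 to -3.10 and with 2 of 5 CNTF arrays above background. Its change in mutants was -0.17 ± 0.11 (adjusted p = 0.269). CXCR5, the B cell receptor for CXCL13, fell by 0.63 ± 0.12 in normal dogs (adjusted p = 0.00171), from -2.53 to -2.08 in PBS eyes to -3.11 to -2.76 in CNTF eyes with no overlap, and changed by -0.25 ± 0.12 in mutants (adjusted p = 0.141). CXCR6, the receptor of CXCL16, was above background on no PBS array and on 3 CNTF arrays of each genotype, and was not tested. Its CNTF values in normal dogs, -3.76, -3.95, -3.53, -3.96 and -3.45, lay above the PBS values of -4.71, -5.02, -5.62, -4.71 and -5.39, a difference of 1.36. In mutants they were -5.28, -4.09, -4.82, -6.02 and -5.93 in PBS eyes and -4.80, -3.34, -3.50, -3.27 and -3.76 in CNTF eyes, which overlapped, with a difference of 1.50. The lower limits of 2.06-fold and 1.51-fold rest on means that include CNTF arrays not above background, so they are not firm. Without the filter on dim probes the adjusted p of CXCR6 was 0.0111 and 0.0106. In the RefSeq table CXCR6 overlaps FYCO1, a gene of vesicle transport, whose probe changed by 0.68 ± 0.22 and -0.18 ± 0.20 (adjusted p = 0.0267 and 0.527). There CXCR5 overlaps BCL9L, CXCL10 overlaps ART3 and CXCL16 also overlaps ZMYND15. CCL5, CCL14, CCL16, CCL19, CCL20, CCL28, CXCL14 and CCR4 overlap loci named by a number alone. Which of the overlapping genes each probe reads was not tested.

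CCR10, the receptor of CCL27 and CCL28, was above background on every array and changed by -0.25 ± 0.12 in normal dogs and 0.30 ± 0.12 in mutants (adjusted p = 0.0926 and 0.0819). In the RefSeq table it overlaps CNTNAP1, a gene of axon junctions, whose probe changed by 0.44 ± 0.12 and 0.28 ± 0.13 (adjusted p = 0.0124 and 0.150). CXCR3, the receptor of CXCL10 on activated T cells, changed by -0.32 ± 0.27 and -0.16 ± 0.27 (adjusted p = 0.326 and 0.701). CXCR2, the neutrophil receptor for IL8, was above background on 5 PBS arrays and 1 CNTF array, CCR1 on 2 and 1, and CCR2, CCR3, CCR6, CCR7 and CCR9 on none.

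**Figure D4:**
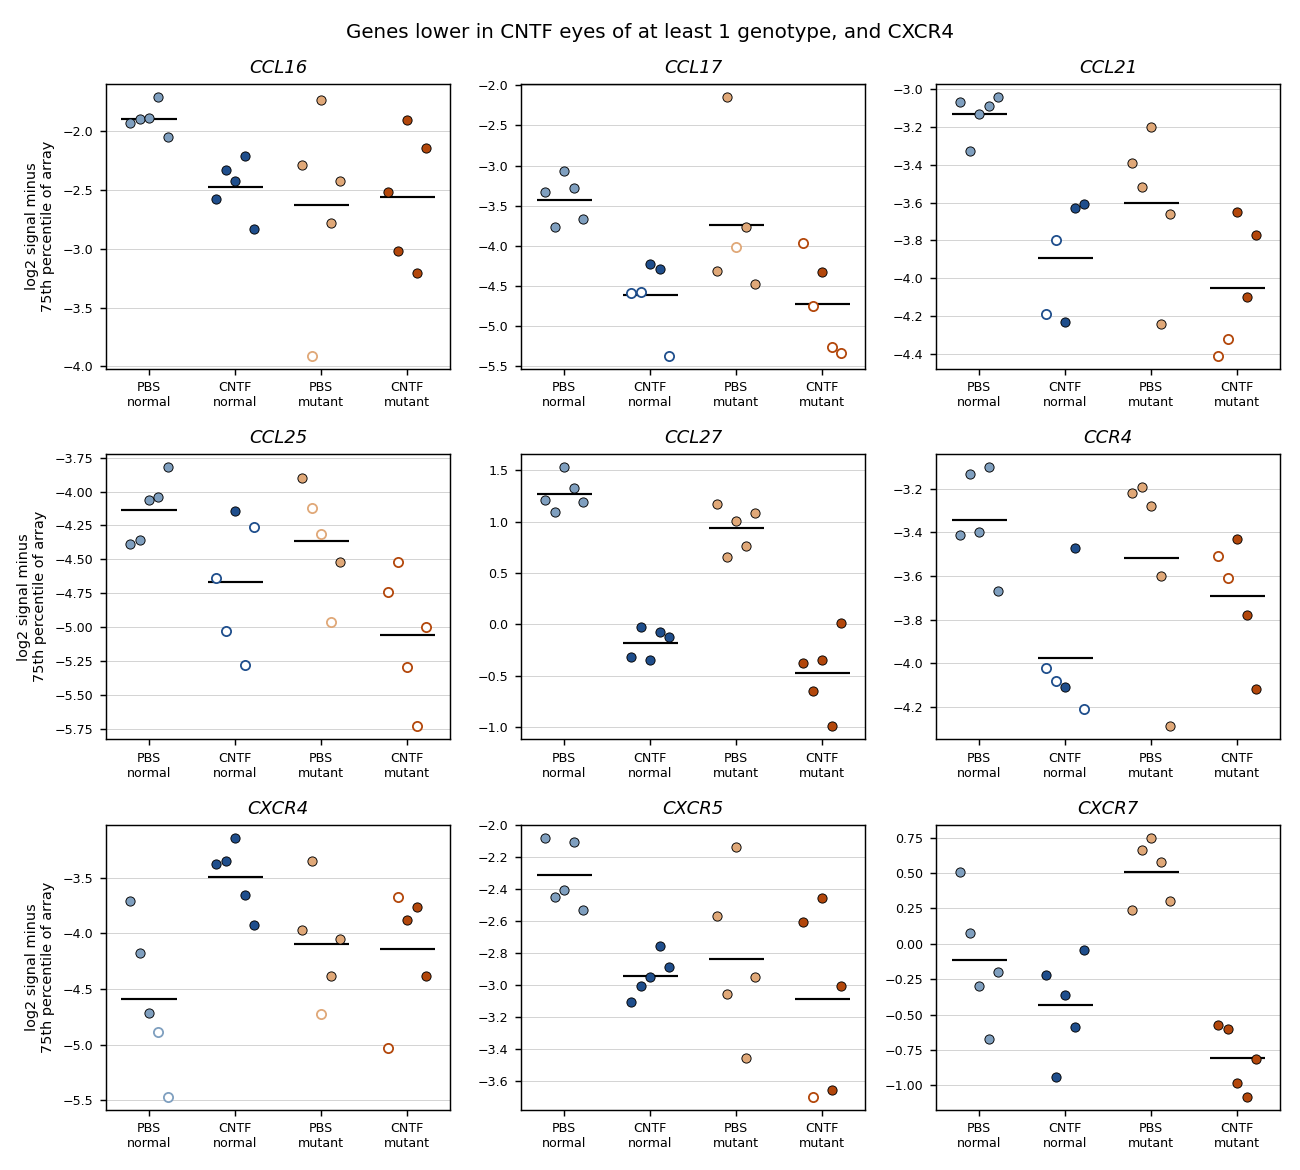
Log2 signal minus the 75th percentile of the array, on the y axis, for the genes called lower in CNTF eyes of normal or mutant dogs and for CXCR4, higher in normal dogs, with 1 point per array (filled if well above background) and a line at the group mean of 5. The y axes differ between genes. CCL27 is the only gene shown whose CNTF eyes all lie below all PBS eyes in both genotypes.

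Set side by side, ligands and their receptors followed no single pattern. The ligand rose while the receptor was seen on no array for CCL19 with CCR7 and CCL2 with CCR2. The ligand rose and the receptor fell in normal dogs for CXCL13 with CXCR5. Both partners fell in normal dogs for CCL17 with CCR4, while CCL27 fell beside a CCR10 that was not called. Both rose in normal dogs for CXCL12 with CXCR4, and CXCL16 rose beside an untested CXCR6 that was higher by 1.36 and 1.50. In normal dogs CXCR4, CXCR5, CCR4 and CCL17 did not pass with normexp correction or with slide as a block. CX3CR1, which the name rule does not take, rose by 3.12 ± 0.32 in normal dogs (adjusted p = 4.71e-05) and by 2.42 ± 0.28 in mutants (adjusted p = 0.000147), at least 3.58-fold and 2.46-fold, beside the uncalled CX3CL1. In mutants 4 of 5 CNTF arrays were above background for CX3CR1, so its limit there is not firm.

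Genes of this family sit in clusters. On chromosome 9, 9 CC ligands lie within 1328 kb (chr9:41001749-42329921). Of these CCL4, CCL5 and CCL2 rose in both genotypes and CCL14 was not called, and the other 5 were not tested. On chromosome 11, CCL19, CCL21 and CCL27 lie within 40.2 kb (chr11:54364290-54404465), where CCL19 rose and CCL27 fell in both genotypes and CCL21 fell in normal dogs. CCL17 and CX3CL1 lie within 21.8 kb of chromosome 2.

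Other probes of the same genes mostly lay below background and added few checks. Of 18 such probes, 4 were tested. Beside the CXCL12 probe above, these were a second CCL14 probe, with 0.21 ± 0.23 and 0.11 ± 0.23 (adjusted p = 0.453 and 0.751), and 2 CXCL14 probes, with no call in either genotype. The other named probes of CCL2 and CCL4, at different places on chromosome 9, were above background on no array, with differences of 0.65 and 0.13 for CCL2 and 1.03 and 0.16 for CCL4 in normal and mutant dogs. An unnamed probe described as CCL4 was above background on 1 PBS array of a mutant, so the rises of CCL2 and CCL4 rest on 1 probe each. A second IL8 probe was above background on 1 CNTF array of a mutant alone. Further, 7 probes with no gene name are described as chemokines. Of these, CXCL17, a mucosal ligand, changed by -1.55 ± 0.42 and -1.59 ± 0.42 (adjusted p = 0.0116 and 0.0165), and a probe described as a fragment of CCL3, above background on all 20 arrays, by -0.45 ± 0.16 and -0.15 ± 0.16 (adjusted p = 0.0331 and 0.520). CCL22, the second ligand of CCR4, changed by -0.65 ± 0.17 and -0.34 ± 0.17 (adjusted p = 0.00923 and 0.166). For CCL21, 2 unnamed probes gave 0.41 ± 0.19 and 0.63 ± 0.16 in normal dogs (adjusted p = 0.0913 and 0.00849), opposite in sign to the named CCL21 probe, so the fall of CCL21 rests on 1 probe and is not shared by these.

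The next question was whether the genotype altered these genes or their response. In PBS eyes no gene of the 22 was called by limma between mutant and normal dogs (0.0272% of all probes were called), and 8 (36.4%) had an unadjusted p under 0.05, where 34.6% of all probes did, among them CXCR7 at 0.62 ± 0.21 and CCL4 at -0.70 ± 0.25 (adjusted p = 0.0957 and 0.102). Without normal dog 1, CXCR7 at 0.78 ± 0.18 and CXCL12 at 0.49 ± 0.14 were called higher in PBS eyes of mutants (adjusted p = 0.0359 and 0.0398). In that fit 13.7% of all probes were called higher and 7.77% lower, so these calls are no larger a share than over the array. In CNTF eyes no gene was called either (0.00681% of all probes were), and 4 (18.2%) had an unadjusted p under 0.05, where 5.60% of all probes did. These were CCL19, CCL5, CXCL13 and CXCR4, all lower in mutants, with changes of -0.93 ± 0.25, -0.99 ± 0.44, -1.67 ± 0.68 and -0.65 ± 0.26 (adjusted p = 0.620 to 0.877).

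The difference of the CNTF change between mutant and normal dogs gave no call among the 22 genes, as among all 29336 probes (0%), while 9 genes (40.9%) and 10163 probes (34.6%) had an unadjusted p under 0.05 by limma. That of CXCL13 was -2.15 ± 0.60 (adjusted p = 0.103), a size that rests on values not above background in every PBS eye and in 3 CNTF eyes of mutants. Those of CCL19 and CXCL12 were -1.14 ± 0.45 and -0.92 ± 0.33 (adjusted p = 0.115 and 0.106). CCL2, CCL4 and CXCL16 differed by -0.18 ± 0.70, -0.15 ± 0.75 and -0.18 ± 0.31 (adjusted p = 0.860, 0.897 and 0.693). All normal dogs were male, and with male dogs alone no gene was called in any of these 3 comparisons. Of all probes, those fits called 0.0137% higher and 0.0893% lower in PBS eyes and 0.0172% lower in CNTF eyes. They called none for the difference of the CNTF change. Age and genotype cannot be told apart.

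Slide could not be fully parted from treatment, so each change is also given with slide as a block in place of the dog. Slides 1 and 5 held 1 group each, so their arrays do not enter its size. The change in normal dogs adds the slide 3 difference to the genotype difference of PBS eyes on slide 2. Normal dog 5 alone stands for normal dogs there. That in mutants adds the slide 3 difference to the genotype difference of CNTF eyes on slide 4. Mutant dog 1 alone stands for mutants there. With slide as a block, 7 of the 9 rises in normal dogs still passed, where 2.95% of all probes were called higher, among them CCL19 at 9.34 ± 0.87, CCL5 at 5.92 ± 1.17, CCL2 at 4.89 ± 1.05, CXCL13 at 5.19 ± 1.31, CXCL16 at 4.28 ± 0.61 and CXCL12 at 3.07 ± 0.70. The rises of CCL4 (2.61 ± 0.91, adjusted p = 0.133) and CXCR4 (2.30 ± 0.65, adjusted p = 0.0634) did not. Of the 8 rises in mutants, 4 still passed, where 1.71% of all probes were called higher, among them CCL19 at 7.78 ± 0.87, CCL2 at 4.16 ± 1.05 and CXCL16 at 3.18 ± 0.61. CCL5 at 4.46 ± 1.17, CXCL12 at 2.29 ± 0.70 and CXCL13 at 2.83 ± 1.31 did not pass although their changes were no smaller than with the dog as a block (adjusted p = 0.0557, 0.114 and 0.374). CCL4 was at 1.58 ± 0.91 (adjusted p = 0.532).

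No fall passed with slide as a block, where 0.97% of all probes in normal dogs and 1.02% in mutants were called lower. CCL27 kept its size at -1.33 ± 0.42 and -1.27 ± 0.42 (adjusted p = 0.103 and 0.154), as did CXCR7 in mutants at -1.26 ± 0.52 (adjusted p = 0.286). CCR4 and CXCR5 in normal dogs turned to 0.34 ± 0.42 and 0.08 ± 0.55, and CCL17 in mutants to 0.20 ± 0.88. CCL16, CCL17, CCL21 and CCL25 in normal dogs were at -0.44 ± 0.82, -0.28 ± 0.88, -0.37 ± 0.41 and -0.39 ± 0.58, and CCL25 in mutants at -0.28 ± 0.58. With both slide and dog as blocks no gene was called in either genotype, while 7 in normal dogs and 9 in mutants had an unadjusted p under 0.05 by limma. Of all probes in that fit, none in normal dogs and 37 higher and 10 lower in mutants were called, and 16.3 and 14.7% had an unadjusted p under 0.05. The changes there were 8.50 and 6.68 for CCL19, 4.69 and 3.68 for CCL2, 3.84 and 3.97 for CCL5 and 3.57 and 2.96 for CXCL16 in normal and mutant dogs (adjusted p = 0.0835 to 0.479). For CXCL12 they were 1.63 and 0.93, and for CCL27 -1.05 and -1.28 (adjusted p = 0.331 to 0.628).

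Within slide 3, the 2 CNTF arrays of normal dogs exceeded the 2 PBS arrays of mutants by 8.36 for CCL19, 5.83 for CCL5, 4.61 for CXCL13, 4.41 for CCL2, 3.54 for CCL4, 2.89 for CXCL16, 2.32 for CXCL12 and 0.85 for CXCR4. These differences mix treatment with genotype and have no test. For the falls they were -1.09 for CCL27, -1.02 for CXCR7, -0.46 for CCL17, -0.10 for CCL25, -0.10 for CCR4, -0.05 for CCL21, 0.14 for CXCR5 and 0.15 for CCL16. These 8 rises kept their sign within this slide, the smallest being that of CXCR4, while among the falls those of CCL27 and CXCR7 were beyond 1 log2 unit and CXCR5 and CCL16 had the opposite sign.

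**Figure D5:**
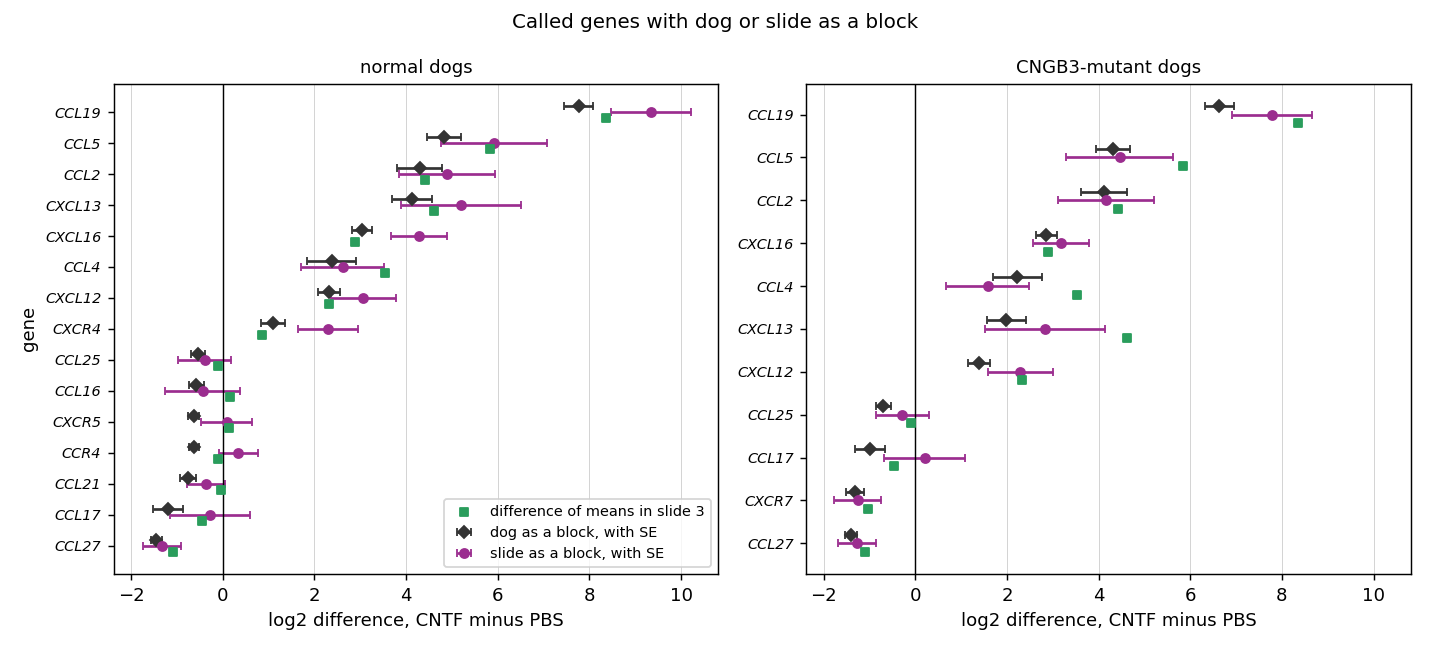
Log2 difference between CNTF and PBS eyes for the called genes named in the text with the dog as a block (black, with SE) or slide as a block (purple, with SE), and the difference of means within slide 3 (green, no error), in normal dogs at left and mutants at right. Values for the 7 largest rises shown in normal dogs lie above 2 in all 3 ways, while those of small falls lie near 0 within slide 3. The slide block values contain the slide 3 difference, so the purple and green values are not separate checks.

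Genes that work with chemokines were read from lists by role, and their counts are to be set against 23.6% of all probes higher and 27.6% lower in normal dogs, and 11.6 and 17.3% in mutants. Of the 16 tested genes of chemokine receptor signalling, 11 rose and 1 fell in normal dogs (median 1.02), and 10 rose and 1 fell in mutants (median 0.97). VAV1, an exchange factor that relays receptor signals to Rac, rose at least 5.31-fold and 4.30-fold, and GNAI2, the inhibitory G protein subunit that most chemokine receptors use, 3.46-fold and 2.29-fold. Among 10 tested genes of leukocyte adhesion and entry 8 rose in normal dogs and 6 in mutants, and none fell. ICAM1 and VCAM1, the vessel wall ligands of leukocyte integrins, rose 3.78-fold and 3.82-fold in normal dogs and 3.39-fold and 3.22-fold in mutants. Of 11 transcription factors that act on chemokine genes, 8 and 5 rose and none fell, with IRF1 at 3.90-fold and 4.13-fold. Outside the name rule 7 further genes of the chemokine system were tested. Of these 4 rose and 1 fell in normal dogs and 3 rose and 1 fell in mutants, and the atypical receptor DARC (ACKR1), which binds chemokines on vessels, rose 2.26-fold and 2.24-fold.

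Markers of cells that make or carry chemokines were read in the same way. Of 11 microglia and macrophage markers on the array, 9 were tested, of which 9 rose in normal dogs and 8 in mutants. Their summed signal, as a multiple of the 75th percentile of the array, was 5.37 to 7.47 in PBS eyes and 34.5 to 55.6 in CNTF eyes of normal dogs, and 7.77 to 9.15 and 36.4 to 65.6 in mutants, over the 4 or 5 arrays of a group with every marker measured. C1QA, CSF1R and TYROBP rose 14.6, 8.72 and 18.3-fold in normal dogs and 9.79, 5.88 and 10.8-fold in mutants. CD163, of macrophages, was above background on 0 PBS arrays and all CNTF arrays. TMEM119, of resting microglia, and P2RY12, a further marker of this list, were above it on some arrays of both groups of normal dogs. In mutants TMEM119 was above it on no array, and P2RY12 on no PBS array but on some CNTF arrays. Of 6 tested T cell markers 2 rose and 1 fell in each genotype, with sums of 2.05 to 2.43 and 2.29 to 3.51 in normal dogs and 2.10 to 2.65 and 2.39 to 3.06 in mutants. CD3D rose and CD4 fell in both, and LCK rose in normal dogs and CD8A in mutants. CD6 was above background only on some PBS arrays of normal dogs. CD3G went the other way, on no PBS array but on some CNTF arrays of each genotype. CD2 was above background on no PBS array of normal dogs and on some arrays of every other group. The B cell markers CD22 and BLK were above background on no array of any group. MS4A1 was above it only on some CNTF arrays of normal dogs, and PAX5 only on some PBS arrays of mutants. Of 3 tested B cell markers 2 fell and none rose in each genotype.

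Neutrophil markers gave 3 rises in normal dogs and 2 rises and 1 fall in mutants, of 7 tested, with sums of 2.58 to 4.52 and 8.98 to 12.0 in normal dogs and 3.75 to 8.29 and 6.59 to 12.2 in mutants. CSF3R and ELANE were above background on no CNTF array, though on some arrays of each PBS group. CSF3R, CAMP and S100A9 were called in neither genotype. The rises lay in other markers of the list, 2 of which rose in both genotypes, so the list held both directions. Natural killer markers gave 2 rises and 1 fall of 3, dendritic cell markers 1 and 1 of 4, in each genotype. Endothelial markers gave 3 rises and 1 fall of 5 in normal dogs and 2 and 1 in mutants. Pigment epithelium and choroid markers gave 0 rises with 3 and 2 falls of 6. Markers of retinal neurons and Müller glia were above background on all arrays of a group for 9 of 10, and 2 rose and 3 fell in normal dogs, 0 and 7 in mutants. The part of any of these cells in the chemokine values was not tested, and in whole retina more cells of a type and more RNA per cell cannot be told apart.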

How the data were processed

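Retinal RNA (100 ng, integrity number above 8, per the labels' protocols) was hybridised to 20 one-colour Agilent arrays of 45220 spots. The authors deposited scanner output with processed intensity, mean and background intensity and 0 or 1 marks for spots well above background, made with Feature Extraction 9.5.3.1 per the file headers, and a matrix of log2 values whose centring is not stated (Partek 6.4, per the submitters' processing notes). Probe coordinates are canFam2, per the file headers.

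Processed intensities were divided by the 75th percentile of the array (291.0 to 592.5), logged, and averaged over spots of a probe, without control and outlier spots. Probes were kept (29545) if above background on 4 or more arrays of some group. CNTF was tested within genotype by limma 3.58.1 (R 4.3.3) over all 20 arrays with the dog as a block (29336 probes with enough arrays measured), and genotypes by limma on 10 arrays each, with Benjamini-Hochberg adjustment over all probes. In simulated data for the comparison in normal dogs, over 29336 probes, 78% of changes of log2 1 and 100% of log2 2 were recovered and 0.0343% of unchanged probes were called. The simulation changed 200 probes, drew independent noise and held no slide effect. Its rates do not carry over to these data, where treatment follows slide and many more probes were called. Correlations of deviations between eyes of a dog ran from -0.156 to 0.693 over all probes. Named genes are members, described by role; 1 tested member, counted throughout, and some genes of the lists are not reported here. The members and gene lists were chosen with earlier results of these data known. Alternatives were quantile normalization, normexp with an offset of 50, the deposited matrix, other filters, probes and blocks, male dogs alone and leaving out each dog. Gene names come from the files and RefSeq's table.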

Additional observations from a re-analysis of the deposited data

Results flagged for a closer look

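In 5 of the 52 groups of arrays examined, 1 eye stood far from the other 4, where chance gives about 1 in 20 groups. CXCL12 in the PBS eye of normal dog 1 was at -1.43, with the others at -2.57 to -2.38. CCL2 in the CNTF eye of the same dog was at -0.56, with the others at -1.15 to -1.02. CCL14 in the CNTF eye of mutant dog 1, the array with the lowest share of probes above background, was at -0.18, with the others at -1.19 to -0.90. CXCL14 was at 2.78 in the PBS eye of normal dog 3, with the others at -0.80 to -0.33, and at 4.77 in the CNTF eye of mutant dog 4, with the others at -0.54 to 0.23.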

How the results depend on the processing

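Leaving out 1 dog gave 9 to 9 higher and 7 to 7 lower genes in normal dogs, 8 to 9 and 3 to 5 in mutants, 0 to 2 higher and 0 to 0 lower between genotypes in PBS eyes, and 0 to 0 in CNTF eyes and for the difference between genotypes. Over all probes these fits called 18 to 24.8% higher and 19.4 to 27.9% lower in normal dogs. In mutants they called 9.25 to 11.8% higher and 12.4 to 17.5% lower. CCL17 in mutants passed without mutant dog 1 or 3 or normal dog 5 alone. Without mutant dog 1, CCL14 (-0.48, adjusted p = 0.0271) and CCR10 (0.38, adjusted p = 0.0467) passed in limma's fit in mutants, without mutant dog 4 CCL21 did (-0.60, adjusted p = 0.0322), and without normal dog 4 CCR10 replaced CCL25 in normal dogs. The PBS calls without normal dog 1 number 2, where 4013 higher and 2283 lower of all 29398 probes were called.

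Both eyes of each dog were injected, and arrays with the same replicate number were taken as the eyes of 1 dog. The correlations between such eyes over all probes were 0.12, -0.06, -0.16, 0.29 and -0.07 in normal dogs 1 to 5. In mutants they ran from 0.19 to 0.69. With no replicate block, 9 genes were higher and 5 lower in normal dogs, and 8 and 2 in mutants, with CCL16 and CCL25 lost in normal dogs and CCL17 and CCL25 in mutants. Of all probes, 19.6% were then higher and 19.6% lower in normal dogs, and 9.64 and 13.1% in mutants. Among genes above background on all arrays, 2 were higher and 1 lower in normal dogs and 2 and 2 in mutants, since only 7 were then tested. Of all probes in that fit, 30.4% were higher and 26.6% lower in normal dogs, and 13.7 and 18.7% in mutants. Without the filter on dim probes 12 genes were higher and 7 lower in normal dogs and 10 and 3 in mutants. Of all probes, 16% were then higher and 16.2% lower in normal dogs, and 7.08 and 8.78% in mutants. Normexp background correction, which moved the median change of all probes from -0.09 to 0.09 in normal dogs and from -0.09 to 0.17 in mutants, left 8 higher and 1 lower in normal dogs and 8 and 2 in mutants, and reversed CCL25 (0.20) and CCR4 (0.13) in normal dogs and CCL17 (0.34) and CCL25 (0.53) in mutants. Of all probes under normexp, 12% were higher and 7.63% lower in normal dogs, and 6.29 and 4.95% in mutants. With slide as a fixed block 7 and 0 genes were called higher and lower in normal dogs and 4 and 0 in mutants, and CCR4 (0.34), CXCR5 (0.084) and, in mutants, CCL17 (0.20) reversed. With slide and dog as blocks counts were 0 and 0 in each genotype, and CCL21 (0.10) and CCL4 (-0.11) in normal dogs and CCL17 (0.69) and CCL4 (-0.76) in mutants reversed. Within slide 3, CCL16 (0.15) and CXCR5 (0.14) reversed. Taking the probe with the second highest mean left 5 higher in mutants. The second CXCL12 probe was tested there and not called, while those of CCL2 and CCL4 were too dim to be tested. The cause of the changes under the other settings was not tested.

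Quantile normalization and the deposited matrix each kept 15 of 16 calls in normal dogs and 11 of 12 in mutants, losing CCL25 and CCL17. Slide as a random block kept 14 and 12. CCL19, CCL2 and CXCL16 were called higher in both genotypes under every setting that tested them except slide with dog as blocks. Signal over background limits the sizes: 12 of the 22 genes were above background on 4 arrays in groups of a single treatment, and the number of arrays limits the precision.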
